A study of Rattus norvegicus with 6 samples.

Results

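A set of 10 genes of purinergic signalling was followed in the dorsal root ganglia of rats: the ATP-gated channel subunits P2rx3, P2rx4, P2rx5, P2rx6 and P2rx7, the G protein-coupled receptors P2ry1, P2ry2 and P2ry12, and the surface enzymes Entpd1 and Nt5e. They were chosen by name from the receptors for extracellular nucleotides and the enzymes that break these nucleotides down, with the condition that each is listed in all 6 deposited files, which 12211 of 14346 genes met. All 10 met it, and all 10 passed the filter on low counts that left 11091 genes for testing. The libraries came from whole ganglia collected at day 7 after a sham operation (3 libraries) or partial sciatic nerve ligation (pSNL, 3 libraries), in which part of the sciatic nerve is tied and injured axons run beside spared ones. The comparison asks how the ganglion's transcripts differ after nerve injury. The labels give no strain, sex, age or number of animals per library. They do not call the libraries separate animals, so the p-values measure only how these samples vary, which may be technical in part. No other treatment or allele is named, and both groups were operated on.

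ATP leaves damaged or active cells and acts on a pair of receptor families. P2X receptors are trimeric channels that open when ATP binds, and P2Y receptors signal through G proteins to ATP, ADP, UTP or UDP. Surface NTPDases cut ATP to ADP and AMP, and 5′-nucleotidase and ectophosphatases turn AMP into adenosine, which acts on receptors of its own. In sensory ganglia P2X3 is best known from small nociceptors, P2X7 and P2Y12 from glia, and P2X4 from neurons and macrophages.

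None of the 10 genes passed the threshold of adjusted p = 0.05 in either direction (edgeR quasi-likelihood test, Benjamini-Hochberg over all tested genes). Of all tested genes 0.46% did, 0.442% higher and 0.018% lower in pSNL, and DESeq2 called none of them (2.89% of the genes it adjusted). The lowest adjusted p among them was 0.206, for P2rx6. At an unadjusted p under 0.05 there were 2, P2rx6 lower and P2rx7 higher in pSNL, against 15.5% of all tested genes. The 3 pSNL libraries lay all above or all below the 3 sham libraries for 2 of the 10, P2ry2 and P2rx6, where 21.5% of tested genes did so. Fold changes were positive for 6 of the 10 and for 49.4% of tested genes, and the median log2 fold change was 0.0973 for the 10 and -0.00243 for all tested genes. Each of these shares rests on 10 genes and none is read as particular to them. The same shares over all tested genes stand beside the counts of genes in the lists below.

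**Figure D1:**
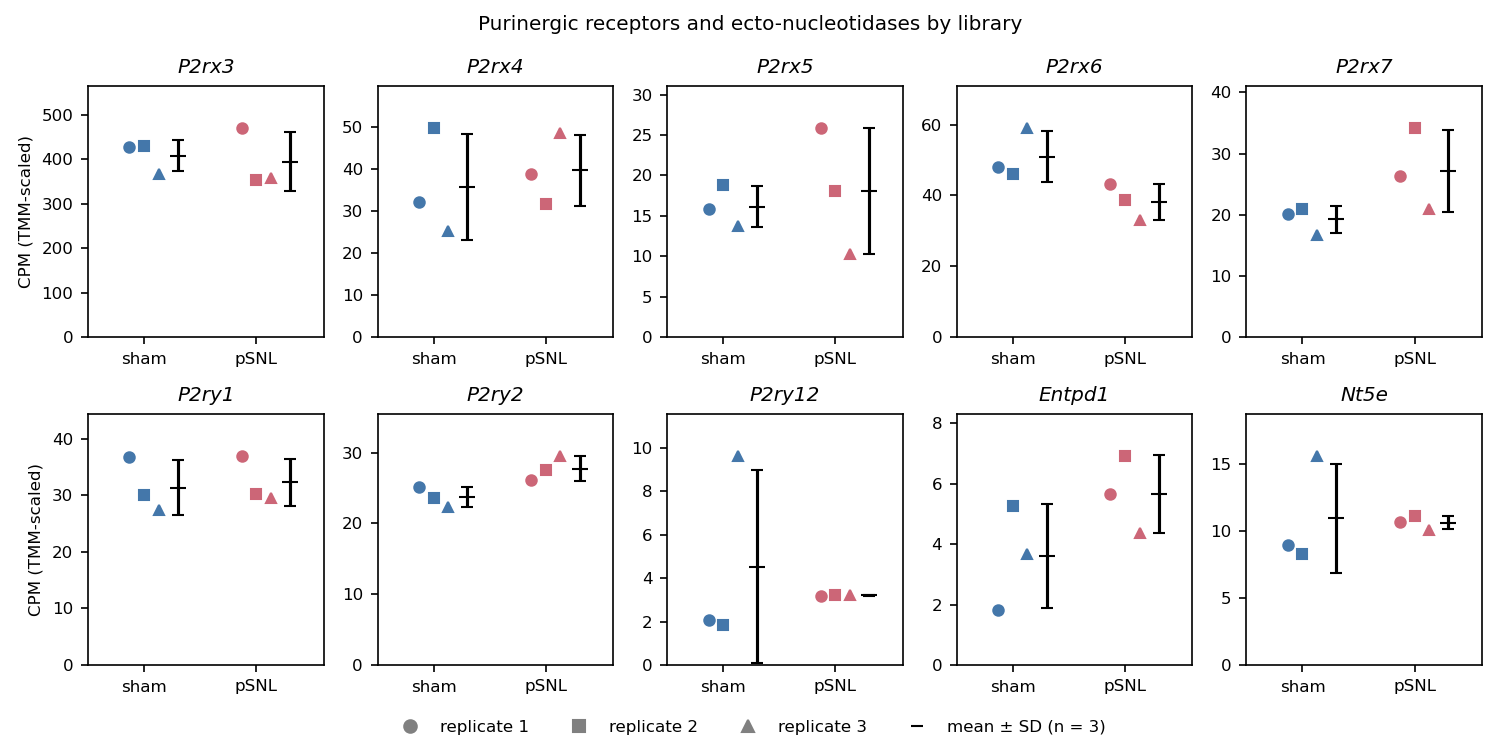
CPM (read counts scaled to library size with TMM factors; linear axes from 0) of the 10 genes in each library, with sham in blue, pSNL in red, symbols for replicates, and mean ± SD over 3 libraries in black. The groups overlap for 8 genes; P2rx6 is lower in each pSNL library and P2ry2 higher, and the high sham point of P2ry12 and of Nt5e is sham replicate 3.

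The libraries held 4310643 to 4416121 estimated counts, so 1 CPM stands for 4.33 to 4.40 counts after scaling. Neuronal markers were present in every library (the 10 pan-neuronal genes summed to 16387 to 19259 CPM in sham and 19075 to 20432 CPM in pSNL), and all 6 injury genes chosen to check the labels were above the whole sham range in every pSNL library. Of these, Atf3, a transcription factor of injured neurons, reached 97.6 CPM in pSNL replicate 1 against 294 and 234 CPM in replicates 2 and 3. Sham replicate 3 stands apart: 9 central glia genes summed to 1952 CPM there and to 29.7 to 64.0 CPM in the other 5 libraries, and 10 skeletal muscle genes summed to 646 CPM there, to 1297 CPM in pSNL replicate 3 and to 14.5 to 22.2 CPM in the rest. Where the sign of a fold change among the 10 genes turned without sham replicate 3 (P2rx4, P2ry1, P2ry12 and Nt5e), both values are given. In whole ganglia, fewer cells of a type and less RNA per cell cannot be told apart.

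Levels of different genes were compared per length, as the FPKM that the authors deposited. In sham ganglia P2rx3 stood first at 107 ± 8.07 FPKM (SD, n = 3 here and for all means below), followed by P2rx6 at 21.7 ± 3.28 and P2rx4 at 17.8 ± 6.16 FPKM. P2ry2 (11.7 ± 0.612), P2ry1 (9.71 ± 1.40), P2rx5 (6.56 ± 0.972) and P2rx7 (5.37 ± 0.552 FPKM) came next. Nt5e (3.85 ± 1.49), P2ry12 (3.65 ± 3.63) and Entpd1 (2.13 ± 1.01 FPKM) were lowest. The P2ry12 level rests on sham replicate 3 (1.64, 1.46 and 7.84 FPKM in replicates 1 to 3). Over the other 2 sham libraries the mean was 1.55 FPKM for P2ry12 and 2.09 FPKM for Entpd1. Neighbours whose ranges over the sham libraries did not overlap were P2rx3 and P2rx6, P2rx4 and P2ry2, and P2ry1 and P2rx5; the other 6 neighbouring pairs overlapped. In pSNL the order ran P2rx3, P2rx4, P2rx6, P2ry2, P2ry1, P2rx7, P2rx5, Nt5e, Entpd1, P2ry12, from 104 ± 19.1 to 2.58 ± 0.0265 FPKM. The pairs that exchanged places (P2rx4 with P2rx6, P2rx7 with P2rx5, Entpd1 with P2ry12) overlapped in their ranges in both groups. Without sham replicate 3, P2ry12 is below Entpd1 in sham as well, and P2rx6 (mean 19.8 FPKM) is below P2rx4 (20.3 FPKM).

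P2rx3 encodes the channel subunit that mediates fast ATP responses of nociceptors and is the target of drugs against chronic cough. Its transcript stood at 427, 430 and 367 CPM in sham replicates 1 to 3 and at 471, 353 and 359 CPM in pSNL replicates 1 to 3. The highest and the lowest value are both from pSNL libraries, so the sham range lies inside the pSNL range. The fold change was 0.966 with a 95% interval of 0.801 to 1.17 (log2 -0.05 ± 0.12 SE; edgeR adjusted p = 0.887). At 1529 to 2073 counts per library this is the most deeply covered of the 10 genes. The library with the highest P2rx3, pSNL replicate 1, is the one with the lowest Atf3 of the pSNL group. Without it the log2 fold change was -0.19 (adjusted p = 0.405, and 0.405 to 0.978 over the alternatives), and without pSNL replicate 2 or 3 it was 0.017 or 0.01. The part of injury strength in this was not tested.

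Markers of the non-peptidergic nociceptors that carry P2X3 were set beside it. Of 9 markers 8 were tested, and neither edgeR nor DESeq2 called any (1 had an unadjusted p under 0.05), the median log2 fold change was -0.0289, and the list summed to 1079 to 1280 CPM in sham and 1030 to 1277 CPM in pSNL. Mrgprd, a receptor of the same neurons, was at 10.8, 11.9 and 13.3 CPM in sham and at 9.08, 4.39 and 5.96 CPM in pSNL, lower in each pSNL library (edgeR adjusted p = 0.173). P2rx3 as a share of Ret, which encodes a growth factor receptor of these neurons, was 82.2 ± 2.89% in sham and 74.7 ± 11.4% in pSNL by FPKM, and these ranges overlapped. The genes most like P2rx3 over the 6 libraries, by Pearson's r of log2 CPM among 8613 genes of at least 10 CPM outside the lists, were Gmpr2 (r = 0.990), Atad3a (r = 0.981) and Smndc1 (r = 0.977). With 6 points and this many genes, high values of r arise readily, and these are given as a description only.

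P2rx2 encodes the usual partner of P2X3 in mixed channels and was in the list of other pathway genes. It was at 7.56, 5.51 and 5.06 CPM in sham and at 10.2, 10.2 and 10.5 CPM in pSNL. Each pSNL library was above each sham library, but the 1.70-fold difference (95% interval 1.17 to 2.48) did not pass the threshold (edgeR adjusted p = 0.173, DESeq2 adjusted p = 0.371). Per length, P2rx2 came to 3.67, 2.65 and 2.84% of P2rx3 in sham and to 4.47, 5.95 and 6.08% in pSNL. This ratio was chosen after the values were seen and is given with no test.

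P2rx6 encodes a subunit that rarely forms channels alone and joins P2X2 or P2X4. It was at 47.9, 45.9 and 59.1 CPM in sham and at 43.1, 38.6 and 33.0 CPM in pSNL. All 3 pSNL libraries were below all 3 sham libraries, as for 10.4% of tested genes. The fold change was 0.751 (95% interval 0.604 to 0.934; log2 -0.41 ± 0.14 SE), which did not pass the threshold after adjustment (edgeR adjusted p = 0.206; DESeq2 adjusted p = 0.278). The sign was negative in all 14 alternative settings, from -0.50 without pSNL replicate 1 to -0.30 without sham replicate 3. The high sham value is from sham replicate 3, the library with central glia and muscle transcripts. The lowest P2rx6 was in pSNL replicate 3, which holds the most muscle transcripts. The part of either tissue in the P2rx6 values was not tested. Of the 10 pan-neuronal genes, 3 (Snap25, Rbfox3 and Syp) lay below sham in every pSNL library and 2 (Stmn2 and Tubb3) lay above it, at log2 fold changes of 0.37 and 0.27. EdgeR called none of the 10, with the lowest adjusted p at 0.0639, and DESeq2 called 3: Snap25 and Syp lower (DESeq2 adjusted p = 6.07e-05 and 0.0274) and Stmn2 higher (0.02). The part of these in the P2rx6 values was not tested. Per length P2rx6 was 2.16 ± 0.166% of the synaptic gene Snap25 in sham and 2.33 ± 0.28% in pSNL, a ratio chosen after the values were seen. Snap25 had the lowest log2 fold change of the 10 pan-neuronal genes (-0.51), and 5 of the 10 were positive and 5 negative. The ratio therefore does not stand for neuronal genes in general. P2rx6 counts were not whole numbers in any library, which an estimate gives where reads are split between features, and in the RefSeq table of assembly GRCr8 it overlaps Lrrc74b. The genes most like it were Cog6 (r = 0.991), Dis3l2 (r = 0.989) and Pcdh9 (r = 0.987).

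P2rx4 encodes a channel subunit found largely on lysosomes and on the surface of activated macrophages and microglia. It was at 32.1, 49.8 and 25.3 CPM in sham and at 38.8, 31.7 and 48.6 CPM in pSNL. The 2 highest libraries are 1 of each group, and the sham libraries alone span the whole range of the 6. The fold change was 1.11 (95% interval 0.727 to 1.70, edgeR adjusted p = 0.831), and its sign turned without sham replicate 3 (log2 -0.046) or without pSNL replicate 3 (-0.021). P2rx5, a subunit that also joins P2X1, was at 15.8, 18.8 and 13.8 CPM in sham and at 25.9, 18.0 and 10.3 CPM in pSNL. For P2rx5 the highest and the lowest library are both pSNL (fold 1.12, 95% interval 0.693 to 1.81, edgeR adjusted p = 0.845), and without pSNL replicate 1 the log2 fold change was -0.18. For both genes the interval leaves room for changes of more than 1.5-fold in at least 1 direction.

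P2rx7 encodes a receptor that needs high ATP, opens a large conductance in immune cells and glia, and can start the release of interleukin-1β. It was at 20.2, 20.9 and 16.8 CPM in sham and at 26.3, 34.2 and 20.9 CPM in pSNL. Replicates 1 and 2 of pSNL were above all sham libraries, and pSNL replicate 3 was level with sham replicate 2. The fold change was 1.41 (95% interval 1.05 to 1.89; log2 0.49 ± 0.19 SE), which did not pass the threshold (edgeR adjusted p = 0.260, DESeq2 adjusted p = 0.447). The sign was positive in all 14 alternative settings, and the log2 fold change ran from 0.29 without pSNL replicate 2 to 0.65 without pSNL replicate 3, with adjusted p no lower than 0.127. In the RefSeq table P2rx7 lies next to P2rx4. The libraries ranked differently for these neighbours, as pSNL replicate 2 had the highest P2rx7 and the lowest P2rx4 of its group. Of the glial lists, 7 satellite glia genes summed to 6566 to 6991 CPM in sham and 5226 to 6324 CPM in pSNL. Most of that sum is Apoe, a lipid carrier gene (5306 to 6243 CPM in sham and 4421 to 5570 CPM in pSNL), and 3 of the 7 had positive fold changes. EdgeR called none of the 7, and DESeq2 called 2, Fabp7 lower and Cdh19 higher in pSNL (DESeq2 adjusted p = 0.00242 and 0.0366). Cdh19 was 1.78-fold higher, with every pSNL library above sham, and the potassium channel gene Kcnj10 was at 8.71, 5.28 and 8.96 CPM in sham and at 18.4, 19.2 and 7.57 CPM in pSNL (edgeR adjusted p = 0.256). Kcnj10, like P2rx7, was lowest of its group in pSNL replicate 3, but in sham Kcnj10 was lowest in replicate 2 and P2rx7 in replicate 3. Glul and Slc1a3, with negative fold changes, were at 949 and 99.0 CPM in sham replicate 3 and at most at 445 and 20.4 CPM elsewhere. The 7 Schwann cell myelin genes summed to 17416 to 21058 CPM in sham and 19692 to 30828 CPM in pSNL, 5 of them with positive fold changes (edgeR called none and DESeq2 1, Prx). The part of either glial list in the P2rx7 values was not tested.

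**Figure D2:**
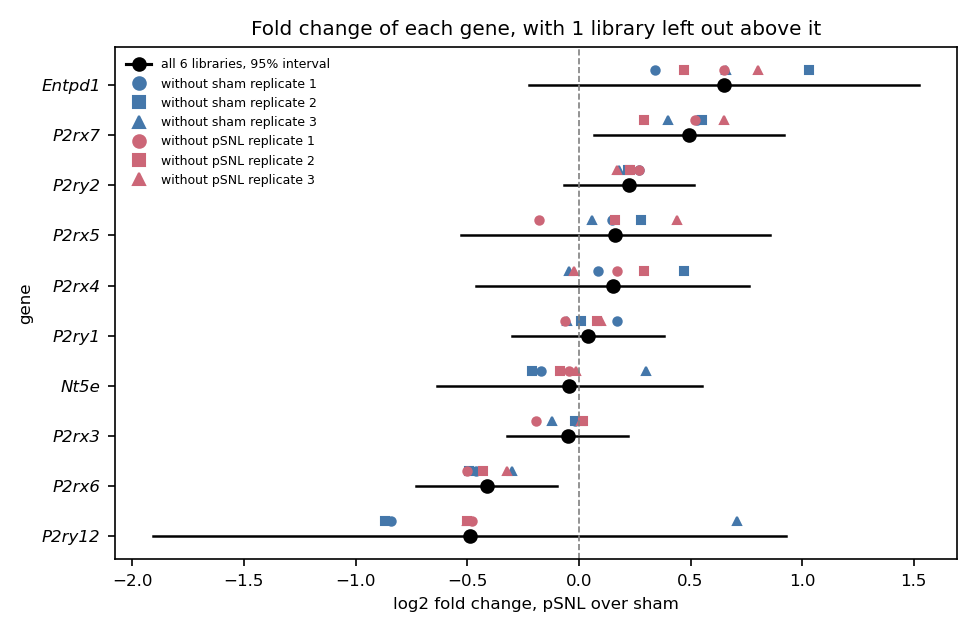
Log2 fold change of pSNL over sham for each gene (black point, with its 95% interval from edgeR as a line) and the same value with 1 library left out (coloured symbols above the line). The intervals of P2rx6 and P2rx7 lie to 1 side of 0 before adjustment over all genes, and P2ry12 moves from -0.49 to 0.71 when sham replicate 3 is left out.

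Most of the P2X transcript was P2rx3 in every library. It made up 66.0 ± 1.65% of the summed FPKM of the 7 P2X genes in sham and 64.0 ± 2.36% in pSNL, with 62.1 to 67.9% over the 6 libraries. P2rx4 contributed 10.8 ± 3.03% and 12.4 ± 3.32%, P2rx6 13.5 ± 3.01% and 10.1 ± 0.825%, and P2rx7 3.29 ± 0.133% and 4.73 ± 1.42%. The P2rx6 share was 12.3, 11.2 and 16.9% in sham replicates 1 to 3. Without sham replicate 3 the sham means were 11.8% for P2rx6 and 11.9% for P2rx4. P2rx1, a subunit of platelets and smooth muscle, stayed at 0.156 to 1.39%. It was not tested, having failed the filter on low counts. The shares add to 100%, so they are not independent of each other.

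P2ry1 encodes the Gq-coupled ADP receptor. It was at 36.7, 30.1 and 27.3 CPM in sham and at 37.0, 30.3 and 29.6 CPM in pSNL. The 2 sets of values nearly coincide (fold 1.03, 95% interval 0.813 to 1.30, edgeR adjusted p = 0.926), and the sign of this small difference turned without sham replicate 3 (log2 -0.051) or pSNL replicate 1 (-0.062). P2ry2 encodes a Gq-coupled receptor that responds equally to ATP and UTP. It was at 25.2, 23.6 and 22.3 CPM in sham and at 26.1, 27.5 and 29.6 CPM in pSNL. Every pSNL library was above every sham library, as for 11.1% of tested genes, but by little (fold 1.17, 95% interval 0.956 to 1.43), and the difference did not pass the threshold (edgeR adjusted p = 0.442). Its log2 fold change stayed between 0.17 and 0.27 with 1 library left out.

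P2ry12 encodes the Gi-coupled ADP receptor that antiplatelet drugs block and that marks microglia in the central nervous system. Its counts were 9, 8 and 42 in sham and 14, 14 and 14 in pSNL, or 2.06, 1.84 and 9.65 CPM against 3.18, 3.24 and 3.21 CPM. Sham replicate 3 alone was above the pSNL libraries, and the other sham libraries were below them. With all libraries the log2 fold change was -0.49 (95% interval -1.90 to 0.93, edgeR adjusted p = 0.754), and without sham replicate 3 it was 0.71 (adjusted p = 0.486, and 0.486 to 0.976 over the alternatives), so this library sets the direction. That library also had the most Tmem119, a microglia marker, at 10.6 CPM, against 1.83 and 2.07 CPM in sham replicates 1 and 2 and 5.45, 4.85 and 2.98 CPM in pSNL. Of 6 microglia markers 5 are in the files, with Siglech not listed and Sall1 at 0 in at least 1 library, and they summed to 80.7 to 125 CPM in sham and 94.3 to 99.2 CPM in pSNL. Among the 9 central glia genes Opalin, Olig1 and Slc1a2 were at 0 in at least 1 library. The part of central tissue in the P2ry12 value of sham replicate 3 was not tested. Of 5 platelet genes 4 are in the files, and they summed to 3.90 to 16.3 CPM in sham and 2.27 to 47.9 CPM in pSNL, with the most in pSNL replicate 2. The part of platelets in the P2ry12 values was not tested.

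**Figure D3:**
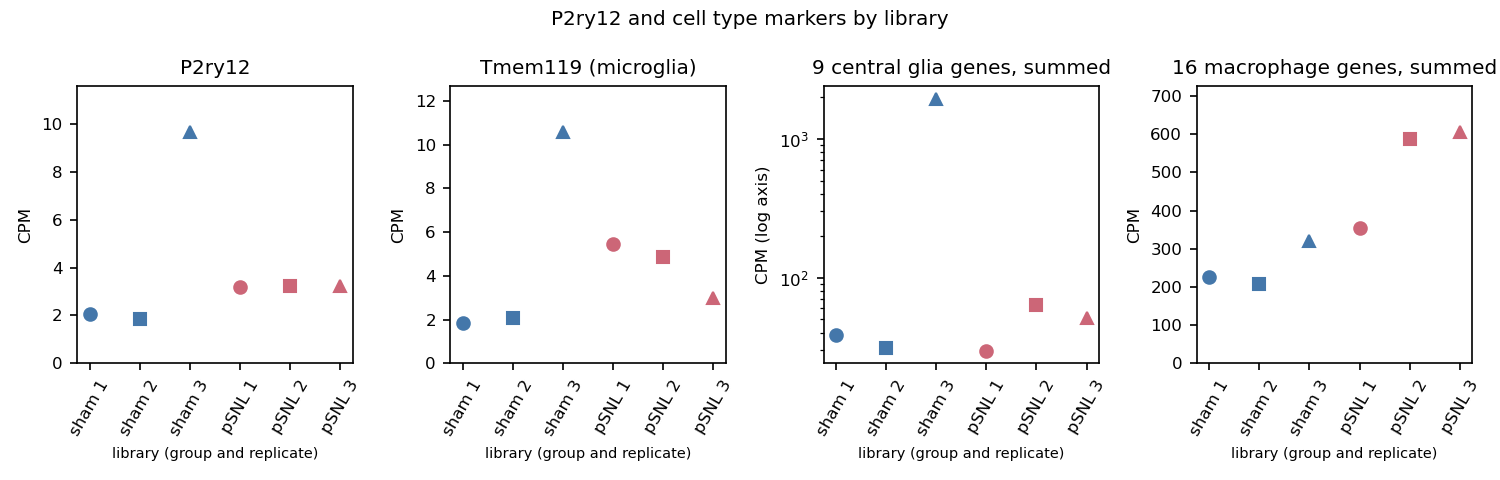
P2ry12, the microglia gene Tmem119, 9 central glia genes summed (log axis) and 16 macrophage genes summed, in CPM for each library. Sham replicate 3 is highest in the first 3 panels, at 9.65, 10.6 and 1952 CPM, and the macrophage sum is 355 to 605 CPM in pSNL against 208 to 319 CPM in sham.

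Entpd1 encodes CD39, which cuts ATP and ADP to AMP on vessels and leukocytes. It had 8, 23 and 16 counts in sham and 25, 30 and 19 in pSNL, or 1.83, 5.28 and 3.68 CPM against 5.68, 6.94 and 4.36 CPM. Both groups overlap, with sham replicate 2 above pSNL replicate 3 and sham replicate 1 lowest of all. The fold change was 1.57 with a wide interval of 0.856 to 2.87 (edgeR adjusted p = 0.464). The counting error at its mean count is 22.3%, and the sham libraries spread more widely than that, at 3.60 ± 1.72 CPM. Leaving out sham replicate 1 gave a log2 fold change of 0.34 and leaving out sham replicate 2 gave 1.03, around 0.65 with all libraries. Of 16 macrophage markers, all in the files and none at 0, 14 had positive fold changes, against 49.4% of all tested genes. EdgeR called none of them, and DESeq2 called 5, against 2.89% of all genes it adjusted. An unadjusted p under 0.05 was found for 10, against 15.5% of all tested genes. The 16 markers summed to 208 to 319 CPM in sham and 355 to 605 CPM in pSNL. The 10 endothelial markers summed to 228 to 301 CPM in sham and 217 to 251 CPM in pSNL, with 4 of 10 fold changes positive. The part of either cell type in the Entpd1 values was not tested.

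Nt5e encodes CD73, which makes adenosine from AMP. It was at 8.94, 8.26 and 15.6 CPM in sham and at 10.7, 11.1 and 10.1 CPM in pSNL. As for P2ry12, sham replicate 3 was above all pSNL libraries and the other sham libraries below them. The log2 fold change was -0.04 (95% interval -0.64 to 0.55, edgeR adjusted p = 0.959) and 0.30 without sham replicate 3 (adjusted p = 0.591, and 0.591 to 0.997 over the alternatives). Its counts were not whole in any library, and in the RefSeq table Nt5e overlaps Snx14. Other genes of the set that overlap a protein-coding gene there are P2rx3, P2rx4, P2rx6, P2ry2 and P2ry12. Of these only P2rx6 had counts that were not whole, so an overlap in the RefSeq table did not go with split reads in general. No source says whether reads were counted by strand, so reads of such pairs may not be told apart.

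Neither CD39 nor CD73 was the main enzyme of its step by transcript level. Among the surface NTPDases, Entpd1 made up 2.30 ± 1.14% of the summed FPKM in sham and 2.97 ± 0.637% in pSNL. Entpd2, an ATPase of glia, made up 57.2 ± 5.22% and 68.5 ± 5.80%, and Entpd3, the NTPDase of sensory neurons, 40.5 ± 4.11% and 28.5 ± 5.63%. Entpd2 stood at 132, 116 and 72.2 CPM in sham and at 127, 160 and 156 CPM in pSNL, and Entpd3 at 124, 140 and 98.8 CPM and at 118, 89.9 and 91.7 CPM. Neither was called (edgeR adjusted p = 0.364 and 0.408), and pSNL replicate 1 lay within the sham range for both genes. The log2 fold change of Entpd2 was 0.47 with all libraries and 0.25 without sham replicate 3, which had the lowest Entpd2. That library also had the lowest Entpd3 of the sham group. The log2 fold change of Entpd3 was -0.28 with all libraries and -0.41 without sham replicate 3 (edgeR adjusted p = 0.184). Among enzymes that act on AMP, Nt5e held 5.19, 4.56 and 10.2% in sham replicates 1 to 3 (mean 6.65 ± 3.08%, or 4.88% without replicate 3) and 6.77 ± 1.06% in pSNL. Acp3, the prostatic acid phosphatase of nociceptors, held 62.8 ± 0.797% and 60.3 ± 4.36%, and Alpl, tissue-nonspecific alkaline phosphatase, held the rest.

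**Figure D4:**
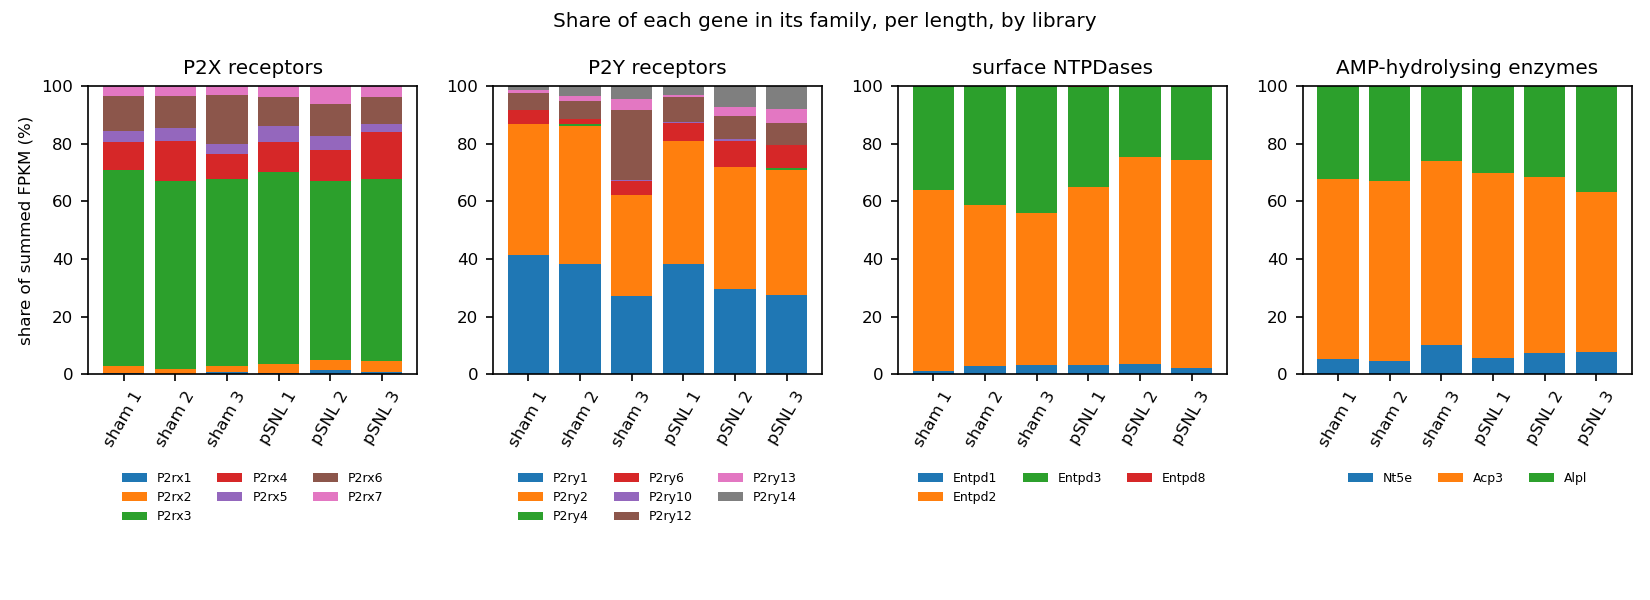
Share of each gene in the summed FPKM of its family (percent, stacked bars to 100%) in each library, for P2X receptors, P2Y receptors, surface NTPDases and enzymes that act on AMP. P2rx3 takes 62.1 to 67.9% of the P2X sum in every library, P2ry12 takes 24.6% of the P2Y sum in sham replicate 3 and 6.01 to 8.46% elsewhere, and Entpd1 and Nt5e are small shares of theirs.

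Another 44 genes of the pathway were listed by role, and 32 were tested. EdgeR called none of them, and 9 had an unadjusted p under 0.05 (5 higher and 4 lower in pSNL), against 15.5% of all tested genes. A total of 18 had a positive fold change, against 49.4% of all tested genes, and the median log2 fold change was 0.054. The groups did not overlap for 10 (21.5% over all tested genes). DESeq2 called 1 of them, Panx2, against 2.89% of all genes it adjusted. No count here is read as particular to the pathway. Of the 12 genes not tested, none exceeded 4.62 CPM in any library, among them Slc17a9, the vesicular ATP transporter, at 0.688 to 1.61 CPM. Adora3, an adenosine receptor, was not listed in any library.

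Among genes of ATP release, Panx2 and Panx1 encode pannexins, and pannexin 1 is the established ATP-permeable one. Panx2 was at 197, 183 and 192 CPM in sham and at 151, 133 and 139 CPM in pSNL. Its groups were well separated (fold 0.739, 95% interval 0.648 to 0.842), and it narrowly missed the threshold in edgeR's test (adjusted p = 0.0583) while passing it with DESeq2 (adjusted p = 0.00419), without pSNL replicate 1 (0.0404) and without the filter on low counts (0.045). Its adjusted p ran from 0.00419 to 0.215 over the alternatives. Panx1 was at 28.0, 26.4 and 24.1 CPM in sham and at 28.2, 37.7 and 39.4 CPM in pSNL, higher in each pSNL library although pSNL replicate 1 exceeded sham replicate 1 by little (fold 1.34, edgeR adjusted p = 0.233). The connexin gene Gja1 reached 239 CPM in sham replicate 3 and 40.1 to 61.3 CPM elsewhere, and its log2 fold change of -1.06 became 0.21 without that library.

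Of 11 other tested ecto-nucleotidase and related genes none was called by edgeR or DESeq2, and 3 had an unadjusted p under 0.05. Entpd6, an intracellular and secreted NTPDase, was at 78.6, 89.3 and 82.5 CPM in sham and at 57.9, 65.4 and 61.5 CPM in pSNL, lower in each pSNL library (fold 0.738, 95% interval 0.635 to 0.858, edgeR adjusted p = 0.082). Entpd4, a Golgi enzyme, was at 205 ± 33.9 and 168 ± 12.5 CPM, and Enpp1, which makes AMP and pyrophosphate from ATP, at 10.7 ± 1.25 and 15.1 ± 0.92 CPM (adjusted p = 0.293 and 0.242). Enpp2, or autotaxin, was at 165 CPM in sham replicate 3 and at 20.4 to 28.7 CPM in the other libraries. Its log2 fold change was -1.71 with that library and -0.29 without it.

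The remaining receptors were low or level. P2ry6, a UDP receptor of macrophages, was at 3.44, 1.15 and 3.91 CPM in sham and at 4.77, 7.17 and 7.11 CPM in pSNL, higher in each pSNL library (fold 2.23, 95% interval 1.17 to 4.23, edgeR adjusted p = 0.224). It had 5 to 31 counts per library. The macrophage sums given above were also higher in pSNL, and their part in the P2ry6 values was not tested. P2ry14, the receptor of UDP-glucose, was at 1.45 ± 0.808 and 3.29 ± 1.49 CPM (adjusted p = 0.333). The adenosine receptor genes Adora1, Adora2a and Adora2b had overlapping groups and no unadjusted p under 0.05, with edgeR adjusted p from 0.789 to 0.957. Adora1, the inhibitory receptor of sensory neurons, was at 18.4 ± 4.32 and 16.2 ± 5.54 CPM (log2 fold change -0.18, and 0.02 without sham replicate 3), and Adora2a at 13.8 ± 2.57 and 14.6 ± 3.75 CPM.

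Of 8 tested genes that take up or break down adenosine none was called by edgeR or DESeq2, and Slc29a2, a nucleoside transporter, alone had an unadjusted p under 0.05 (18.1 ± 3.67 and 12.3 ± 3.24 CPM, edgeR adjusted p = 0.305). Pnp, purine nucleoside phosphorylase, stood at 45.0 ± 9.24 and 54.3 ± 5.60 CPM (adjusted p = 0.423). Of the inflammasome genes downstream of P2X7, Nlrp3, Il1b and Il18 failed the filter on low counts and 3 were tested. Casp1 was at 1.38, 1.84 and 1.61 CPM in sham and at 3.41, 2.31 and 3.44 CPM in pSNL, and Pycard was also higher in each pSNL library (edgeR adjusted p = 0.300 and 0.477). Casp1 had 21 counts in sham and 40 in pSNL, each summed over 3 libraries, so its counting error is large.

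**Figure D5:**
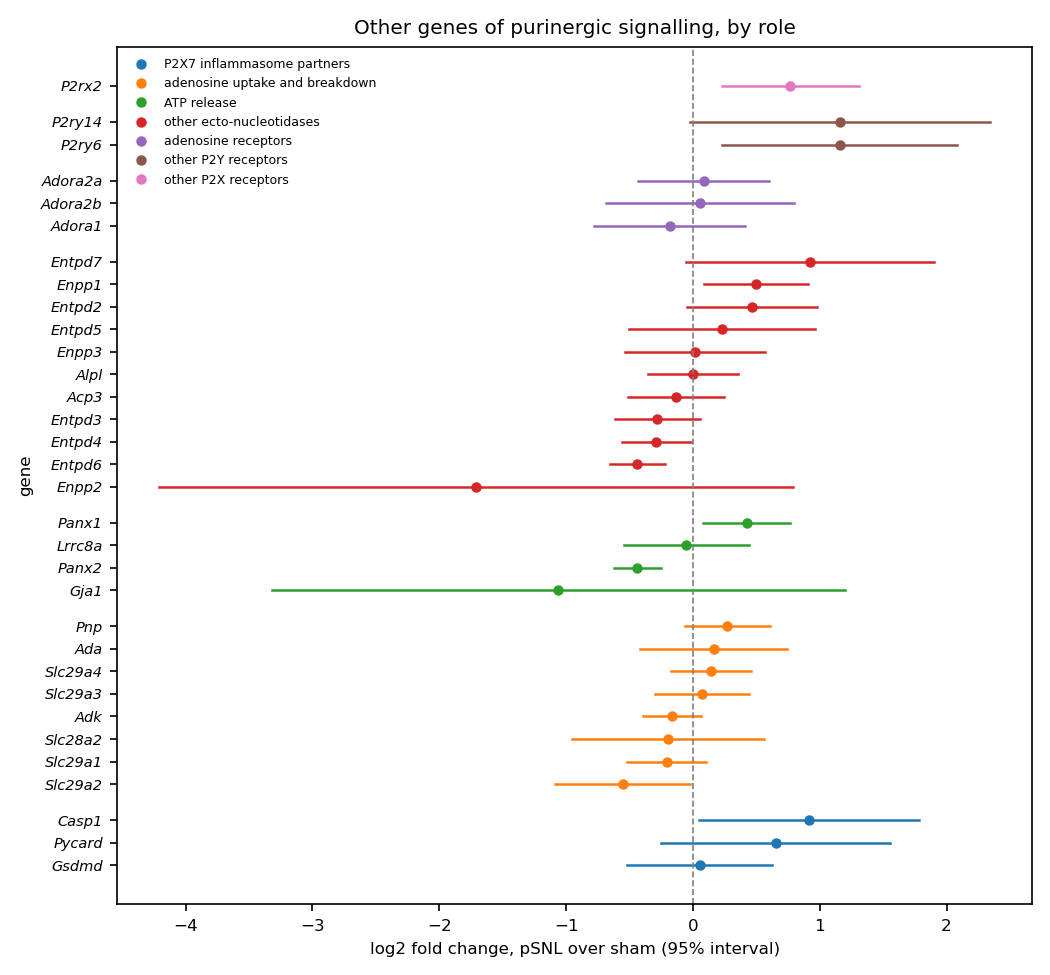
Log2 fold change of pSNL over sham with its 95% interval (edgeR, before adjustment over genes) for the 32 tested pathway genes, grouped and coloured by role. Panx2 and Entpd6 have the narrowest intervals away from 0, at -0.44 each, and the widest, of Enpp2 and Gja1, belong to genes with 1 high value in sham replicate 3.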

How the data were processed

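RNA from whole dorsal root ganglia was sequenced in 6 libraries (3 sham, 3 pSNL), grouped by sample title. Per the file headers, the authors deposited for each library an expected count (an estimated count that need not be whole), an FPKM value and a length per gene. CASAVA 1.4 and Bowtie2 are named, with no role, in the submitters' processing notes. The quantifier, genome build and annotation behind the counts are unknown here, and coordinates are left out. Genes that a file does not list count as 0 in it. Of 14346 gene IDs, 14227 matched a symbol in the RefSeq table of GRCr8 and 16 matched by transcript accession.

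Expected counts were rounded and tested with edgeR 4.0.16 in R 4.3.3 (TMM, default filter on low counts, robust quasi-likelihood F test, Benjamini-Hochberg over 11091 genes, threshold 0.05), and the code was tested on simulated data. Standard errors and 95% intervals come from the log2 fold change and its F statistic. Alternatives were DESeq2 1.42.0, limma 3.58.1 on log2(FPKM + 1) and log2(FPKM + 0.1), other scaling and filters, a replicate block, and each library left out in turn. FPKM served otherwise only for levels between genes. The 10 genes and the lists were chosen with earlier results of these data known. Named genes are the 10, in each pathway role the 2 with the smallest p plus any called gene or any needed for a small count, markers beside a result, and the 3 genes most correlated with P2rx3 and with the gene of smallest p; further pathway genes were named after their values were seen. No protein or promoter sequence is shown.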

Additional observations from a re-analysis of the deposited data

How the results depend on the processing

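None of the 10 genes was called in any of the 14 alternative settings; the lowest adjusted p was 0.127, for P2rx7 without pSNL replicate 3. With at least 10 counts required in all libraries, P2ry12 and Entpd1 were not tested. Of 138 recomputed fold changes 127 kept their sign and 11 reversed. With 1 library left out, log2 fold changes ran from -0.19 to 0.017 for P2rx3, -0.046 to 0.47 for P2rx4, -0.18 to 0.44 for P2rx5, -0.062 to 0.17 for P2ry1, -0.87 to 0.71 for P2ry12 and -0.21 to 0.30 for Nt5e. Nt5e was also positive with limma, at 0.0047 and 0.016 with FPKM pseudocounts of 1 and 0.1. Of the other pathway genes, 1 (Panx2) was called with DESeq2, with no filter on low counts, and without pSNL replicate 1, and 0 to 1 with 1 library left out. Over all genes, 51 were called, against 89 with no filter, 32 with at least 10 counts in all libraries, 332 with DESeq2 and 5 to 217 with 1 library left out (5 without sham replicate 2, 217 without pSNL replicate 1); the cause was not tested.

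Whether replicate numbers pair the libraries cannot be told from these values. Deviations from group means of same-numbered libraries correlated at 0.0318, 0.0107 and 0.123 for replicates 1, 2 and 3. Sham replicates 1 and 2 correlated best with another number, and the value for replicate 3 was the highest of all pairs. Both replicate 3 libraries also held skeletal muscle transcripts (646 and 1297 CPM). With 3 libraries per group the deviations of a gene sum to 0, so small correlations cannot exclude pairing. With the replicate number as a block, 111 genes were called, against 51 without it, and 0 of the 10 and 0 of the other pathway genes. P2ry12 and Entpd1 had the fewest counts of the 10, at 8 to 42 per library, with counting errors of 24.4% and 22.3% at their means.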
